A study of Mus musculus with 8 samples.

Results

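A set of 8 genes of inherited cystic kidney disease was followed in messenger RNA from mouse kidney: Pkd1, Pkd2, Pkhd1, Cys1, Nphp4, Glis2, Glis3 and Bicc1. They were taken by symbol from the deposited count table, in which 8 of 49315 Ensembl gene IDs carried one of these names in the GENCODE M21 annotation. The rule uses names and no measured value, but the set was drawn up with earlier results of these data known. The samples were 4 frozen kidney samples with the genotype label control (wild type in the extraction protocol) and 4 with the label conditional knockout, and the series' title names Kdm1a as the gene lost. LSD1, the protein made from Kdm1a, is a histone demethylase. The Cre driver, the deleted exons, the age and the sex of the animals are not given in the sources used here, and the labels do not say whether a library is 1 animal or a pool, so the p values measure the spread between these 8 libraries.

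Cysts form when tubules lose control of their diameter and their cells divide. Most of the genes involved act at the primary cilium, a single antenna-like projection of the tubule cell. Polycystin-1, the product of Pkd1, is a large receptor-like membrane protein that pairs with the cation channel subunit polycystin-2, the product of Pkd2, and mutations in either cause dominant polycystic kidney disease. Fibrocystin, from Pkhd1, is mutated in the recessive form, and cystin, from Cys1, is lost in the cpk mouse. Nphp4 encodes nephrocystin-4 of the ciliary transition zone. Glis2 and Glis3 encode zinc finger transcription factors of the Gli-similar family, and Bicc1 encodes an RNA-binding protein known to raise the level of the Pkd2 transcript.

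Of the 8 genes, 1 changed at an adjusted p under 0.05. Pkd1 rose by 16.8% in the knockout, where 14.9% of all 18485 tested genes were called in either direction, 6.61% were called higher and 8.27% lower. Pkd2 stood 11.0% higher and did not pass the test. Pkhd1 had the largest difference, 2.06-fold lower in the knockout, and also did not pass. The remaining 5 genes had log2 fold changes between −0.21 and −0.05, and none of these was called. The median log2 fold change of the 8 genes was −0.15, beside 0.00 over all tested genes. All 8 were measured at 115 counts or more in every library and passed the filter on low counts.

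Start regions of 6 of the 8 genes, with 8 start sites between them, were matched in RefSeq (GRCm38.p6), and those of Glis2 and Bicc1 were not used here. The 250 bases before the start are printed for Pkhd1 and Pkd1, the member with the largest difference and the member that was called. That of Pkhd1 is chr1:20618058-20618307 (minus strand) and that of Pkd1 chr17:24549700-24549949 (plus strand). The starts are those of RefSeq. GENCODE M21 starts both genes inside these windows, Pkhd1 at 20618064 and Pkd1 at 24549834. Capitals mark the GC box GGGCGG on either strand, a short motif common in start regions rich in CpG.
Pkhd1: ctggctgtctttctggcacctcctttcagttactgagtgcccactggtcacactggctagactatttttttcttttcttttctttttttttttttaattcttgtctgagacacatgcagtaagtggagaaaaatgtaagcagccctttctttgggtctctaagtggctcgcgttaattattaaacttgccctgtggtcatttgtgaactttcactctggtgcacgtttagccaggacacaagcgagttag
Pkd1: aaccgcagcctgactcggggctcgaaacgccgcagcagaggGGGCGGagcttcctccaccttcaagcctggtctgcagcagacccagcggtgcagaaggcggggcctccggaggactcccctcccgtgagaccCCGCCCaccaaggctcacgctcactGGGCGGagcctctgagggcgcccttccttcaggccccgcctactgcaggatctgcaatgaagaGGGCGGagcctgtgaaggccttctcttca

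GGGCGG, searched on both strands, was found 4 times in Pkd1, 3 times in Glis3 and 2 times in 1 of the 3 start regions of Nphp4. It was found 0 times in Pkd2, Pkhd1, Cys1 and the other start regions of Nphp4, and in 32.7% of all regions at least 1 time. The Pkd1 window held 16 CpG dinucleotides and the Pkhd1 and Pkd2 windows 4 each, beside a median of 6. These are matches of letters, and binding was not measured here.

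The libraries held between 19524945 and 28544511 counts. The transcript of Kdm1a itself was at 113 ± 4.77 CPM in controls and 93.6 ± 1.88 CPM in knockouts (mean ± SD, n = 4). CPM is a gene's counts per 1000000 counts of the library, with library totals scaled by edgeR's TMM method. The edgeR adjusted p of Kdm1a was 0.0194, and it rose above 0.05 in 5 of the 8 fits that left out 1 library. On the first principal component, which held 62.7% of the variance of all tested genes, control replicate 2 (9.56) and knockout replicate 3 (9.71) fell next to each other, between the other controls (−78.7 to −52.4) and the other knockouts (48.3 to 68.4). Y-linked transcripts were present in 5 libraries and near 0 in control replicate 2 and knockout replicates 1 and 4. Markers of the adrenal gland, the neighbouring organ, were raised in 3 libraries, with sums of 3302 CPM (knockout replicate 1), 395 CPM (knockout replicate 4) and 179 CPM (control replicate 4). In the other 5 the sum was 16.5 to 33.4 CPM.

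Per kilobase of exon, the members differed among themselves far more than they differed between genotypes. In controls Bicc1 had the highest level at 30.2 ± 2.48 CPM per kilobase, before Glis2 at 19.6 ± 2.36, Pkd2 at 14.0 ± 0.215 and Cys1 at 10.1 ± 2.53. Pkd1 followed at 4.42 ± 0.0545 CPM per kilobase, Glis3 at 3.25 ± 0.407, Pkhd1 at 2.30 ± 0.873 and Nphp4 at 0.985 ± 0.0977. The first 5 places were held in this order in all 8 libraries. The last 3 were less distinct, since the range of Pkhd1 over the 8 libraries, 0.744 to 3.34 CPM per kilobase, overlapped both Glis3 (2.48 to 4.06) and Nphp4 (0.732 to 1.09).

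Pkd1 (ENSMUSG00000032855, chromosome 17, 24549950 to 24596514, plus strand, GRCm38) stood at 62.8, 62.6, 63.4 and 61.5 CPM in control replicates 1 to 4 and at 71.8, 72.0, 69.3 and 79.1 CPM in knockout replicates 1 to 4. All 4 knockouts lay above all 4 controls, and the controls differed from each other by no more than 1.03-fold. The log2 fold change was 0.22 (SE 0.06, edgeR adjusted p 0.0384). Over 19 alternative fits the log2 fold change ran from 0.18 to 0.27, and the call was kept in 8 of them. It was lost without any one of 6 of the libraries (adjusted p 0.0785 to 0.105) and kept when control replicate 2 (0.0233) or knockout replicate 3 (0.0310) was dropped. Among the 5 libraries with Y-linked transcripts the change was 0.18 (adjusted p 0.110), and with a covariate for adrenal transcripts 0.21 (adjusted p 0.0904). The 3′ end of Pkd1 shares 578 exon bases (4.08% of its exon length) with Tsc2 on the opposite strand, which itself stood at −0.10 on the log2 fold scale (SE 0.08, adjusted p 0.395).

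Pkd2 (ENSMUSG00000034462, chromosome 5, 104459450 to 104505819, plus strand) stood at 139.8, 145, 143 and 143 CPM in the controls and at 164, 156, 148 and 164 CPM in the knockouts. Again no knockout reached down to the controls, although knockout replicate 3 came within a few CPM of control replicate 2. The log2 fold change was 0.15 (SE 0.05, edgeR adjusted p 0.0855). Pkd2 was called without knockout replicate 3 (0.20, adjusted p 0.0464) and with control replicate 2 and knockout replicate 3 both left out (0.18, adjusted p 0.0261). DESeq2 (0.15, adjusted p 0.0362) and limma-voom (0.17, adjusted p 0.0127) also called it. Control replicate 2 and knockout replicate 3, which lie between the groups on the first principal component, were picked from these same data. Leaving both out gave 7903 calls over all genes, beside 2751 with all 8 libraries. Groups that did not overlap were thus seen for 2 of the 8 genes, both higher in the knockout, beside 18.9% of all tested genes in either direction, 9.29% in this one and 9.58% in the other.

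The partners of the polycystin complex were also set against each other within each library. Per kilobase, the ratio of Pkd1 to Pkd2 within a library was 0.322, 0.309, 0.319 and 0.310 in the controls and 0.315, 0.331, 0.335 and 0.346 in the knockouts, with means of 0.315 ± 0.00650 and 0.332 ± 0.0132. The ranges overlapped, and the ratio was not tested. The ratio of Pkhd1 to Pkd2 spread more widely, from 0.0851 to 0.238 in the controls and from 0.0484 to 0.110 in the knockouts.

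**Figure D1:**
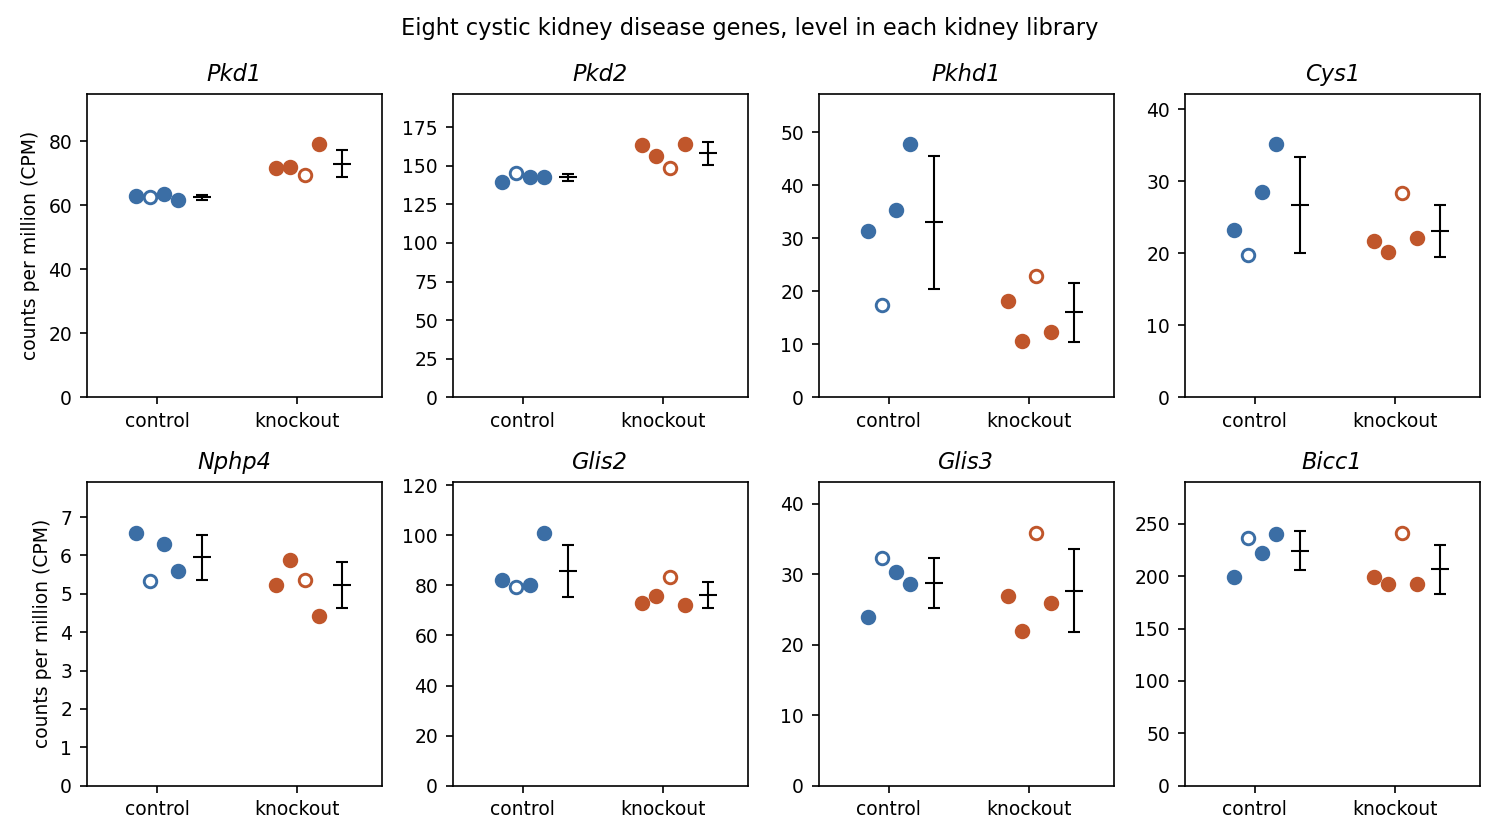
Level of each of the 8 genes in CPM (vertical axes from 0) in the 4 control and 4 knockout libraries. Points are libraries, open points are control replicate 2 and knockout replicate 3, and black bars are mean ± SD. The groups are apart for Pkd1 and Pkd2, and in Pkhd1 control replicate 2 (17.4 CPM) lies below knockout replicate 3 (22.9 CPM).

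Pkhd1 (ENSMUSG00000043760, chromosome 1, 20057779 to 20618064, minus strand) was the most variable member. It stood at 31.3, 17.4, 35.3 and 47.7 CPM in control replicates 1 to 4 and at 18.2, 10.6, 22.9 and 12.2 CPM in knockout replicates 1 to 4. The groups overlapped through control replicate 2, which lay below 2 of the knockouts. Controls differed by up to 2.75-fold and knockouts by up to 2.15-fold. The log2 fold change was −1.04 (SE 0.32, edgeR adjusted p 0.0588). Its direction held in all 19 alternatives, and it was called in 7. Among these were the fits that dropped control replicate 2 (−1.25, adjusted p 0.00743), knockout replicate 3 (−1.25, adjusted p 0.0377) or both (−1.48, adjusted p 0.00163). Over all genes these fits called 7084, 3192 and 7903, beside 2751 with all 8 libraries. The pair was picked from these same data, so its removal is no independent support. DESeq2 gave −1.04 (adjusted p 0.00758), and the 5 libraries with Y-linked transcripts gave −1.17 (adjusted p 0.0634). Of the genes inside its span, 4930486I03Rik shares 208 exon bases on the opposite strand and had 0 counts, and Gm37315, Gm15795 and Gm24162 had at most 6, 3 and 2 counts.

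Markers of the proximal tubule and the thick ascending limb were lower in the knockout, as was the fitted value of Pkhd1. Distal tubule and collecting duct markers are given further on. All 8 intercalated cell markers and 5 of 7 tested distal convoluted tubule markers had lower fitted values. Of these distal lists, only the principal cell list had markers called higher. All 14 proximal tubule markers were called lower, with a median log2 fold change of −3.05, among them the megalin gene Lrp2 (−2.24, adjusted p 0.0205). Summed over the list they ran from 648 to 2643 CPM in controls and from 53.4 to 354 CPM in knockouts. Of 8 thick ascending limb markers 6 were called lower, and the list summed to 251 to 1171 CPM in controls and 24.4 to 337 CPM in knockouts. In both lists, as in Pkhd1, control replicate 2 was the lowest control and knockout replicate 3 the highest knockout. By mean log2 CPM this order was also seen in the distal convoluted tubule, principal cell, intercalated cell, podocyte and endothelial lists. It is thus not particular to the proximal tubule and the thick ascending limb. In whole kidney, fewer tubule cells and less RNA per tubule cell cannot be told apart, and the part of cell composition in the level of Pkhd1 was not tested.

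Cys1 (ENSMUSG00000062563, chromosome 12, 24665838 to 24681813, minus strand), the cystin gene, stood at 23.3, 19.8, 28.5 and 35.1 CPM in the controls and at 21.7, 20.2, 28.3 and 22.1 CPM in the knockouts. The groups overlapped almost fully, and the log2 fold change was −0.21 (SE 0.18, edgeR adjusted p 0.435). With control replicate 2 and knockout replicate 3 both left out it was −0.44 (adjusted p 0.0388), the only one of 19 alternatives in which Cys1 was called. That pair was picked from these same data.

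Nphp4 (ENSMUSG00000039577, chromosome 4, 152476706 to 152563183, plus strand) was the least abundant member, at 5.33 to 6.60 CPM in controls and 4.43 to 5.87 CPM in knockouts, and rested on 115 to 161 counts per library. Its log2 fold change was −0.19 (SE 0.15, edgeR adjusted p 0.372), and it was not called in any of 19 alternatives. Nphp4 lies 15.9 Mb from Kdm1a on the same chromosome. Its span overlaps that of Kcnab2 on the opposite strand, with 0 exon bases shared, and Kcnab2 itself stood at −0.27 on the log2 fold scale (SE 0.14, adjusted p 0.182).

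The transcription factor genes did not pass the test. Glis2 (ENSMUSG00000014303, chromosome 16, 4594713 to 4624924, plus strand) had 82.2, 79.4, 80.3 and 101 CPM in the controls and 73.1, 75.7, 83.4 and 72.1 CPM in the knockouts, so that 3 knockouts lay below every control and knockout replicate 3 lay among them. Its log2 fold change was −0.17 (SE 0.09, edgeR adjusted p 0.207), and without control replicate 4, the highest control, it was −0.09 (adjusted p 0.452). Glis2 shares 74 exon bases with Pam16 on the opposite strand, whose own log2 fold change was −0.15 (SE 0.08, adjusted p 0.176). Glis3 (ENSMUSG00000052942, chromosome 19, 28258851 to 28680077, minus strand) ran from 23.9 to 32.3 CPM in controls and from 21.9 to 35.9 CPM in knockouts, at −0.05 on the log2 fold scale (SE 0.15, edgeR adjusted p 0.821). The knockout range of Glis3 enclosed the control range, and its direction turned in 3 of 19 alternatives. The genes overlapping it, 4933413C19Rik and D930032P07Rik, had at most 4 counts in a library.

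Bicc1 (ENSMUSG00000014329, chromosome 10, 70922832 to 71159700, minus strand), the RNA-binding protein gene, was the most abundant member. It stood at 199.4, 236, 222 and 240.3 CPM in the controls and at 199.5, 193, 242 and 193 CPM in the knockouts. Knockout replicate 3 had the highest level of all 8 libraries and the other 3 knockouts lay level with or below the lowest control. The log2 fold change was −0.12 (SE 0.09, edgeR adjusted p 0.377). Bicc1 shares 344 exon bases (4.62%) with the antisense gene 4930533K18Rik, which had at most 20 counts in a library (its own log2 fold change was 0.46, adjusted p 0.571), and Gm15647, which overlaps it too, had 0 counts.

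**Figure D2:**
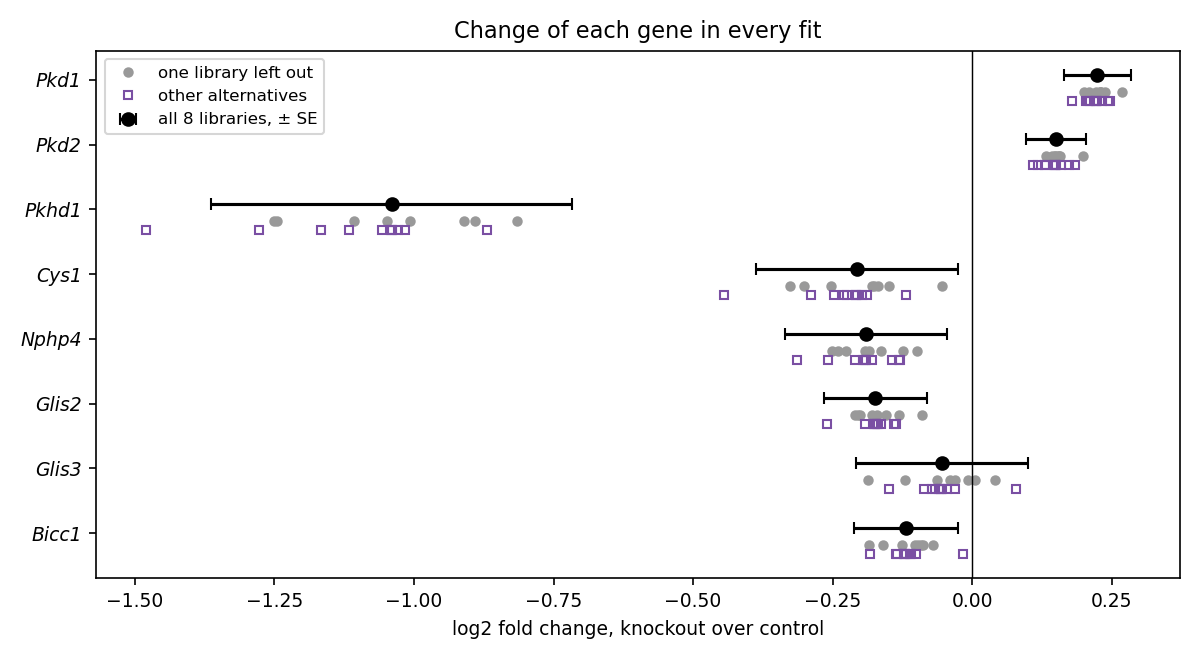
Log2 fold change of knockout over control (horizontal axis) for each of the 8 genes. Black points with bars are the fit on all 8 libraries ± SE, grey points the 8 fits that each left out 1 library, and open squares the 11 other alternatives. Pkd1 and Pkd2 stay above 0 in every fit shown. Pkhd1, Cys1, Nphp4, Glis2 and Bicc1 stay below 0, and Glis3 crosses 0.

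The genes whose log2 CPM was most like that of a member over the 8 libraries were sought among 11035 genes that averaged 10 CPM or more. Likeness is Pearson's r, given as a description. The 8 libraries differ in genotype and in the levels of tissue markers, and r takes in both. For Pkd1 they were Ankrd45 (r = 0.986), Nnat (0.985) and Brsk1 (0.982), and for Pkd2 Gpt2 (0.982), Rsrp1 (0.977) and Zdbf2 (0.971). Ankrd45, Nnat, Gpt2, Rsrp1 and Zdbf2 were themselves called higher. For Pkhd1 they were Mroh1 (0.994), Sh3tc1 (0.991) and Arfgef2 (0.990), and r stayed between 0.979 and 0.990 for these after each group's mean was subtracted. For Cys1 they were Lamb1 (0.979), Cdkn1c (0.967) and Psap (0.966), and for Nphp4 Trnau1ap (0.962), Wrap53 (0.961) and Nsun5 (0.952). Glis2 was most like Pigv (0.987), Recql (0.967) and Uqcc2 (0.965). Glis3 was most like Fyn (0.946), Kit (0.935) and Tanc2 (0.902), and Bicc1 was most like Gbf1 (0.958), Igfbp4 (0.937) and Thsd1 (0.926). None of the genes named for the other 6 members was called in the edgeR fit.

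**Figure D3:**
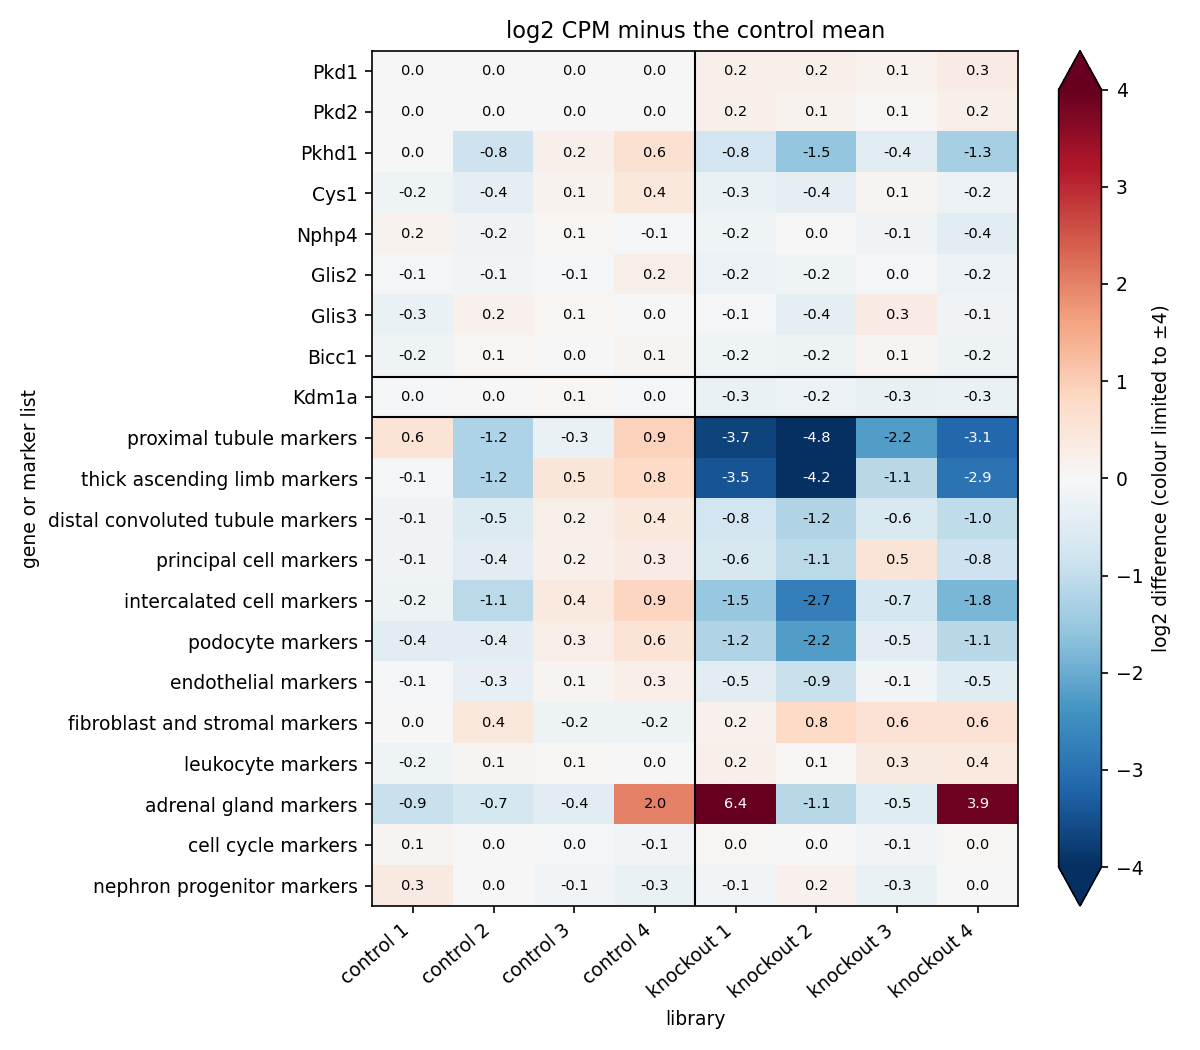
Difference of log2 CPM from the control mean (colour and printed value) in each library (columns) for the 8 genes, for Kdm1a, and for the mean of each marker list (rows). Pkhd1 runs from 0.62 in control replicate 4 to −1.53 in knockout replicate 2, and Pkd1 from −0.02 in control replicate 4 to 0.34 in knockout replicate 4.

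Other cell types were followed by lists of their own, whose most abundant genes included Calb1 and Wnk1, Aqp2, Atp6v1g3 and Atp6v0d2, Cdkn1c and Wt1, Pecam1 and Cdh5, Col3a1 and Col1a2, Csf1r, Cyp21a1 and Star, Mki67 and Top2a, and Sall1 and Six2. Distal convoluted tubule markers had 3 of 7 tested genes called lower and 0 called higher, with a median log2 fold change of −0.42. The list summed to 891 to 1304 CPM in controls and 803.5 to 934 CPM in knockouts. These sums include Calb1, the list's most abundant gene, at a mean of 482 CPM in controls and 574 CPM in knockouts. Principal cell markers had 2 of 8 called higher, Gata3 (0.56, adjusted p 0.0364) and Hsd11b2 (0.59, adjusted p 0.0459), and 0 called lower. The other 6 had lower fitted values, among them Aqp2 (−1.43, adjusted p 0.278), the list's median was −0.49, and it summed to 509 to 1214 CPM in controls and 282 to 1022 CPM in knockouts. Intercalated cell markers had 2 of 8 called lower and all 8 lower in the fit, with highest sums of 123 and 57.3 CPM. Podocyte markers had 2 of 8 called lower, at 787 to 1303 and 594 to 944 CPM, and endothelial markers 1 of 8, at 515 to 797 and 357 to 608 CPM. Fibroblast and stromal markers had 3 of 10 called higher, at 3150 to 4433 and 3681 to 6112 CPM. Leukocyte markers had 1 of 6 called higher, Ptprc (0.93, adjusted p 0.0146), at 77.3 to 89.9 and 81.6 to 106 CPM. Nephron progenitor markers had 1 called higher and 2 lower of 8, at 477 to 724 and 564 to 803 CPM, and no marker of any list was at 0 in all libraries. Adrenal and cell cycle markers had 0 called of 10 tested genes each with edgeR and 6 and 0 at an unadjusted p under 0.05. They had 3 and 0 called with DESeq2 and 0 and 1 with limma-voom. Over all 18485 genes these counts were 2751 with edgeR, 6489 at an unadjusted p under 0.05, 4506 with DESeq2 and 8302 with limma-voom. Cell cycle markers summed to 993 to 1156 CPM in controls and 1049 to 1153 CPM in knockouts.

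The wider set of cystic disease and cilium genes, 101 genes in 7 lists, had 97 tested genes, of which 6 were called higher and 9 lower. That is 15.5% of the tested members beside 14.9% of all genes, with a median log2 fold change of 0.07 beside 0.00 over all genes. Without knockout replicate 4 none of the 97 was called, where 153 of all 18672 tested genes were. Without control replicate 2 there were 42, where 7084 of all 18953 were. Leaving out control replicate 1, 3 or 4 or knockout replicate 1 or 2 gave 374 to 695 calls over all genes. The counts of single lists below moved beside these whole-table counts. These lists were chosen with earlier results of the data known.

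Among 25 genes of nephronophthisis and the transition zone, the gate at the base of the cilium, 1 was called (4%, beside 14.9% of all genes). Ahi1, the jouberin gene, rose from 20.6 ± 2.26 to 29.6 ± 5.07 CPM (0.52, SE 0.14, adjusted p 0.0393). The list had a median of 0.16. In the fit 18 genes were higher and 7 lower, beside 9337 and 9148 of all 18485 tested genes. An unadjusted edgeR p under 0.05 was found for 11 of the 25, beside 6489 of all 18485. Leaving out control replicate 2 gave 11 calls in this list, and leaving out any one of 5 other libraries gave 0.

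Of 24 genes of intraflagellar transport and cilium assembly 3 were called (12.5%, beside 14.9% of all genes). Kif3a, a motor subunit that carries cargo into the cilium, rose from 53.7 ± 5.27 to 68.2 ± 6.19 CPM (0.34, SE 0.09, adjusted p 0.0382). Arl3, a small GTPase that releases lipidated cargo in the cilium, fell from 84.9 ± 5.40 to 71.8 ± 4.03 CPM (−0.24, SE 0.07, adjusted p 0.0468). Bbs7, a subunit of the BBSome coat, fell from 17.3 ± 1.68 to 13.1 ± 0.764 CPM (−0.40, SE 0.10, adjusted p 0.0362), and of these 3 it was the one whose groups did not overlap. The list's median was 0.12, and 10 of its genes were called without control replicate 2 and 0 without any one of 6 other libraries.

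The genes that help polycystins mature in the endoplasmic reticulum include several genes of dominant polycystic kidney or liver disease. Of 10 genes 1 was called (10%, beside 14.9% of all genes). It was the mannosyltransferase gene Alg9, which fell from 33.0 ± 2.87 to 27.2 ± 1.31 CPM (−0.28, SE 0.08, adjusted p 0.0491). The list ran from −0.28 to 0.11 with a median of −0.11. In the fit 9 of 10 genes were lower, beside 9148 of all 18485 tested genes. Alg9 shares exon bases with 1 gene on the opposite strand that reached 861 counts in a library. Its call was lost without any library other than control replicate 2.

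Of 7 other polycystin and fibrocystin relatives 4 passed the filter on low counts. The most abundant was Pkd2l2, a relative of Pkd2 singled out after its values were seen, at 14.1 ± 2.64 CPM in controls and 18.5 ± 1.41 CPM in knockouts (edgeR adjusted p 0.0813). None was called with edgeR, 2 had an unadjusted p under 0.05, 1 was called with DESeq2 and 3 with limma-voom. Over all 18485 tested genes, 6489 had an unadjusted edgeR p under 0.05, and 4506 and 8302 were called with DESeq2 and limma-voom. Pkhd1l1, the closest relative of Pkhd1, differed most (log2 fold change 1.73, SE 0.95, adjusted p 0.221). It stood at 0.819, 3.11, 0.646 and 0 CPM in the controls and at 1.52, 8.79, 1.35 and 3.53 CPM in the knockouts, with knockout replicate 2 highest and the groups overlapping.

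Among 14 other genes of inherited cystic or tubulointerstitial kidney disease 3 were called lower and 0 higher (21.4%, beside 14.9% of all genes in either direction). Umod, which encodes the urinary protein uromodulin, fell from 179 ± 116 to 3.73 ± 6.06 CPM (−5.52, SE 1.16, adjusted p 0.0219). It is also 1 of the 8 thick ascending limb markers counted above, whose median log2 fold change was −2.425. The part of cell composition in the level of Umod was not tested. Fh1, which encodes fumarate hydratase of the citric acid cycle and is a renal tumour gene, fell from 156 ± 27.3 to 96.1 ± 6.76 CPM (−0.70, SE 0.12, adjusted p 0.0153). Both had groups that did not overlap. Umod was no longer called after dropping any one of 6 libraries (adjusted p up to 0.0787), and its call was kept without control replicate 2 or knockout replicate 3. That of Fh1 was lost in 2 of 8, without knockout replicate 4 (0.0606) or control replicate 3 (0.0516).

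In the Gli and Hedgehog pathway, to which the Glis factors are related by their zinc fingers, 4 of 10 genes were called (40%, beside 14.9% of all genes). The ligand gene Ihh fell from 17.3 ± 9.08 to 1.35 ± 1.55 CPM (−3.63, SE 0.74, adjusted p 0.0202), with control replicate 2 the lowest control at 5.10 CPM and knockout replicate 3 the highest knockout at 3.67 CPM. The transcription factor genes Gli1 (0.52, SE 0.13, adjusted p 0.0336) and Gli2 (0.70, SE 0.17, adjusted p 0.0287) rose, as did Hhip, a ligand-binding inhibitor and response gene (0.73, SE 0.20, adjusted p 0.0432). Gli1 went from 46.8 ± 2.73 to 66.9 ± 12.5 CPM, with knockout replicate 2 at 48.9 CPM inside the control range, and Gli2 from 13.8 ± 3.13 to 22.4 ± 3.13 CPM without overlap. Stromal markers summed to between 3150 and 4433 CPM in controls and 3681 and 6112 CPM in knockouts, and their part in the levels of Gli1, Gli2 and Hhip was not tested. The list had 0 calls without control replicates 1, 3 or 4 or knockout replicates 1 or 4.

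Of 10 tested genes of cyst-linked cAMP signalling and transport, 3 were called (30%, beside 14.9% of all genes). Pde3a, a cAMP-degrading phosphodiesterase gene, rose from 57.4 ± 5.98 to 84.6 ± 6.19 CPM (0.56, SE 0.09, adjusted p 0.0128). Its groups did not overlap, and its call held in 18 of 19 alternatives, the exception being the fit without knockout replicate 4 (adjusted p 0.0530). Pde4c, another phosphodiesterase gene, fell from 18.7 ± 7.92 to 6.53 ± 3.01 CPM (−1.51, SE 0.42, adjusted p 0.0440). Cftr, the chloride channel gene, fell from 15.8 ± 1.07 to 10.1 ± 2.32 CPM (−0.65, SE 0.17, adjusted p 0.0342), with no overlap. The call of Pde4c was kept in 10 of 19 alternatives and that of Cftr in 12. Of the fits that left out 1 library, 6 of 8 lost Pde4c (adjusted p up to 0.117) and 5 of 8 lost Cftr (up to 0.108). The list had 0 calls without knockout replicate 4 and 1 call without control replicate 1, 3 or 4 or knockout replicate 1.

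**Figure D4:**
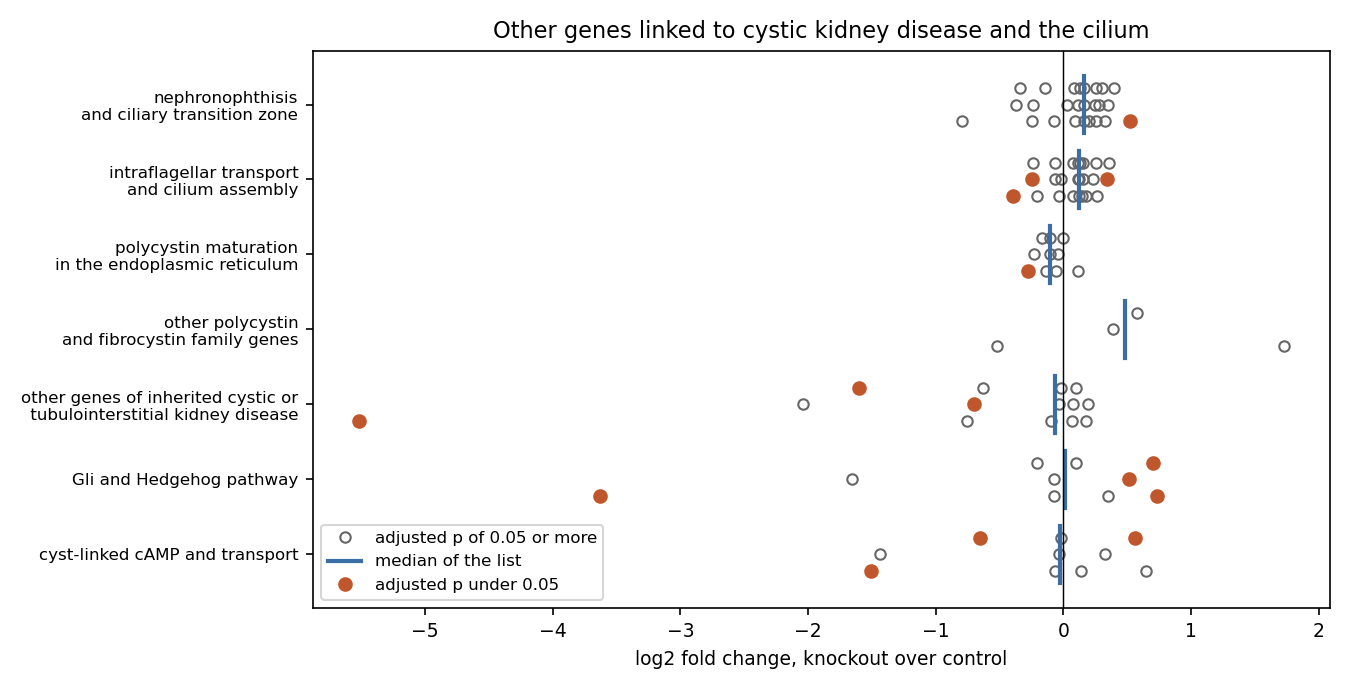
Log2 fold change of knockout over control (horizontal axis) for the 97 tested genes of the 7 lists (rows), with called genes filled and the median of each list as a vertical bar. Most genes lie close to 0, and Umod (−5.52) and Ihh (−3.63) lie farthest from it.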

How the data were processed

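Messenger RNA of 8 kidney samples was sequenced after oligo-dT enrichment with a NEBNext Ultra kit, per the labels' protocols. The deposited values are whole-number read counts per Ensembl gene, not normalized. The submitters' processing notes name Trimmomatic 0.36, STAR 2.5.2b, featureCounts, Subread 1.5.2, DESeq2 and GRCm38, and the strand setting is not given in the sources used here. The series table and the per-library files held the same counts. Gene names came from GENCODE M21 (49056 of 49315 IDs matched) and start regions from RefSeq.

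Libraries were compared 4 against 4 with edgeR 4.0.16 (R 4.3.3), using the quasi-likelihood test after TMM scaling and its filter on low counts, with Benjamini-Hochberg adjustment over 18485 genes. A gene was called at an adjusted p under 0.05. A fold change is knockout over control, and CPM uses library totals after the filter, multiplied by TMM factors of 0.948 to 1.05. In unscaled totals 1 count is 0.0350 to 0.0512 CPM. The test was also run on simulated counts, which held no library lying between the groups as control replicate 2 and knockout replicate 3 do. That run cannot show how the test behaves with such libraries. Alternatives were DESeq2 1.42.0, limma-voom (limma 3.58.1), DESeq2 size factors, other filters, a replicate block, covariates for Y-linked and adrenal transcripts, and libraries left out. The pair left out together, control replicate 2 and knockout replicate 3, was picked from these same data.

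The genes named were the 8 members and Kdm1a, up to 3 called genes in each direction per pathway list (or the largest change where none was called), the 2 most abundant genes per marker list, the 3 genes most like each member and genes overlapping a member. A few genes this rule would name are not reported here. The members and lists were chosen with earlier results of these data known.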

Additional observations from a re-analysis of the deposited data

Results flagged for a closer look

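For 25 genes, the highest and lowest library of each group of 4 was compared with the other 3, which made 50 groups. A library was singled out where its gap to the nearest other took up more of the group's range than Dixon's critical value allows. Chance alone singles out about 1 in 20 groups, and 5 were found here.

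Glis2 in control replicate 4 stood at 101.1 CPM, where the other controls lay between 79.4 and 82.2 CPM. Bicc1 in knockout replicate 3 stood at 241.6 CPM, where the other knockouts lay between 192.7 and 199.5 CPM. Kif3a in control replicate 2 stood at 61.6 CPM, with the other controls between 50.3 and 52.0 CPM. Umod in knockout replicate 3 stood at 12.8 CPM, with the other knockouts between 0.0502 and 1.58 CPM. Ihh in knockout replicate 3 stood at 3.67 CPM, with the other knockouts between 0.402 and 0.684 CPM. Of the 5 values, 3 were in knockout replicate 3, the knockout that lay nearest the controls on the first principal component.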

How the results depend on the processing

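The number of genes called was 2751, and it was 4506 with DESeq2, 8302 with limma-voom, 1243 with the adrenal covariate and 7903 without both control replicate 2 and knockout replicate 3. Leaving out 1 library gave 153 (without knockout replicate 4) to 7084 (without control replicate 2). Of the 8 members 1 was called, against 3 with DESeq2, 3 with limma-voom, 4 without both libraries, and 0 with the Y-linked covariate, in the libraries with Y-linked transcripts alone and with the adrenal covariate. Leaving out 1 library gave 0 to 3. Of the pathway lists 15 genes were called, against 27, 53, 48, 9 and 7 with DESeq2, limma-voom, both libraries left out, the Y-linked covariate and the adrenal covariate, and 0 to 42 when 1 library was left out. Where a count moved, the cause was not tested. 

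Pkd1 was lost without a filter on low counts (log2 fold change 0.205), with the Y-linked covariate (0.212), in libraries with Y-linked transcripts alone (0.180) and with the adrenal covariate (0.208), and ran from 0.201 to 0.268 as 1 library was left out. Pkd2 was called with DESeq2 (0.149), limma-voom (0.173) and both libraries left out (0.184), and ran from 0.132 to 0.198. Pkhd1 was called with DESeq2 (−1.042), limma-voom (−1.278), no filter (−1.058) and both libraries left out (−1.481), and ran from −1.251 to −0.815. Cys1 was called without both libraries (−0.444). Glis3 reversed in libraries with Y-linked transcripts alone (0.078), and ran from −0.187 to 0.041, above 0 without control replicate 2 (0.006) or knockout replicate 2. Nphp4, Glis2 and Bicc1 kept their direction and stayed uncalled in all 19 alternatives. Among libraries without Y-linked transcripts, 1 control and 2 knockouts were too few to compare.

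With the replicate number as a block, 3229 genes, 1 member and 17 pathway genes were called, and the member was Pkhd1 (−1.017), while Pkd1 (0.222, adjusted p 0.0761) was not. The labels do not say whether equal numbers pair the samples. Deviations of same-numbered libraries from their group means correlated at −0.11, 0.33, 0.23 and −0.06, and those of other pairs at −0.47 to 0.40. These correlations cannot decide it, since the deviations within a group are not independent of each other. Depth limits Nphp4 most, at 115 to 161 counts a library.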
